A study of Drosophila melanogaster with 2 samples.

Results

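The genes described here are 10 genes of the heart and dorsal mesoderm of the Drosophila embryo: tin, bap, lbe, lbl, Hand, svp, zfh1, Mef2, htl and sli. They were chosen by name out of 13945 protein-coding genes, with earlier results of these data known. A peak was given to a gene where its summit had that gene as the nearest protein-coding transcription start site (TSS) or lay in the gene's body. The peaks came from chromatin immunoprecipitation and sequencing (ChIP-seq) of Doc2, a T-box transcription factor of the Dorsocross group. Whole Drosophila melanogaster embryos, 0 to 18 h old and carrying a transgene for Doc2 fused to eGFP, were sonicated to fragments of 200 to 800 bp and precipitated with an antibody that the labels describe as anti-GFP in one field and list as Doc2 in another. There was 1 group with 2 biological replicates and no other genotype, age or treatment. Because whole embryos of a wide age range were pooled, a peak cannot be placed in a cell type or stage, and heart cells are a small part of such material.

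The insect heart, or dorsal vessel, arises from the dorsal mesoderm. Dpp, a BMP-type signal from the overlying ectoderm, keeps the homeobox gene tin active there, and tin, the Dorsocross genes and the GATA factor gene pnr are together required to specify cardiac cells. Later the Dorsocross genes are expressed in the cardioblasts that also express svp and that form the inflow valves, while tin is expressed in the other cardioblasts. The targets that Doc2 contacts in these cells are the question this gene set puts to the data.

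A peak in these data is an interval of the genome with a signal, the value that the authors' peak caller gave it, on a scale that the labels and notes used here do not give. The ranked lists hold every candidate peak, and the thresholded lists keep those with an irreproducible discovery rate (IDR) of 0.01 or less, a measure of how well the rank of a peak repeats between the sets compared. The series thresholded list held 1140 peaks on the 6 main chromosomes with a median signal of 104.6, and the series ranked list held 140206 with a median of 23.3. The own thresholded lists of replicates 1 and 2 held 777 and 468 peaks there, and their ranked lists 120746 and 124045. Candidates are therefore dense: the median gene had 5 of them, so a ranked peak alone is no evidence of binding. The lists used here also hold stretches without any candidate, which differ between lists: 30 of the 777 peaks called in replicate 1 (3.86%, with signals up to 308) and 15 of the 468 called in replicate 2 (3.21%) overlapped no peak of the series ranked list. A stretch of at least 5 kb (a length chosen after the values were seen) touched 29.7% of all genes in the series ranked list and 3 of the 10 genes, Hand, Mef2 and tin. Where a list has such a stretch, the absence of a peak is not read as an absence of binding.

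The sequences around 3 summits are shown because they are the centres of the strongest thresholded peak of the set, at zfh1, of the thresholded peak between lbl and lbe, and of the strongest candidate at tin. Each holds 201 bases centred on the summit, read 5′ to 3′ on the plus strand of RefSeq Release 6, the same build as dm6. Capitals mark matches of the motifs described further on: ACAGTG in zfh1, and in tin, from left to right, a forkhead, a Mad, a Tinman and a T-box core match. The lbl window holds none of the 9 motifs searched.
zfh1, chr3R:30781656-30781856: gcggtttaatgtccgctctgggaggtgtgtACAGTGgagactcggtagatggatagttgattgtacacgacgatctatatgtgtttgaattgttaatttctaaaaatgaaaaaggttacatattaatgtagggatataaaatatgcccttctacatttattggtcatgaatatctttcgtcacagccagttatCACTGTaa
lbl, chr3R:21438695-21438895: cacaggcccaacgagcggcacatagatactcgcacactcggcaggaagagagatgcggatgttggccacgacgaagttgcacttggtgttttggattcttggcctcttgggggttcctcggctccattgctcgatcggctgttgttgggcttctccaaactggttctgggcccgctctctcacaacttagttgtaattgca
tin, chr3R:21383655-21383855: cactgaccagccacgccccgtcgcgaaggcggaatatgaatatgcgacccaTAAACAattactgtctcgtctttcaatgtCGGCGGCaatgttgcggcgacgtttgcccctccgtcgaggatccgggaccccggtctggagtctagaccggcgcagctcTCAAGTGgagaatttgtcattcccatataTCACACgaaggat

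Of the 10 genes, 3 had a peak in the series thresholded list: zfh1, sli and lbl, with 1 peak each. The other 7, tin, bap, lbe, Hand, svp, Mef2 and htl, had none. Over all protein-coding genes 1090 had one, which is 7.82%. The conservative list, taken here as the comparison of the replicates with each other, added Mef2 and gave 4 of 10, against 7.24% of all genes. Replicate 1 alone called zfh1 and sli (2 of 10, against 5.49% of all genes), and replicate 2 alone called none (0 of 10, against 3.36%). No gene of the set had overlapping peaks in the own lists of both replicates, which 2.7% of all genes had. With 10 genes, chosen with earlier results of these data known, and 1 group, no test was made of these counts.

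The genes of the set are rich in candidates, so the count of genes with a peak is read beside how often a candidate was called. The set held 360 ranked peaks, a median of 38 a gene against 5 over all genes, and 3 of the 360 reached the series list. That is 0.833% (exact Clopper-Pearson 95% interval 0.172 to 2.42%, which covers counting error only and treats neighbouring peaks as separate), against 0.813% of all ranked peaks. Counted the other way, the genes held 0.257% of all ranked peaks and 0.263% of the series peaks. The 6 genes of the set with 30 or more ranked peaks were lbe, lbl, svp, zfh1, Mef2 and sli, and 3 of them had a series peak, where 21.8% of all 1468 genes with as many had one. The limit of 30 was chosen after the values were seen. Per candidate, peaks at these genes thus reached the threshold about as often as peaks elsewhere.

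**Figure D1:**
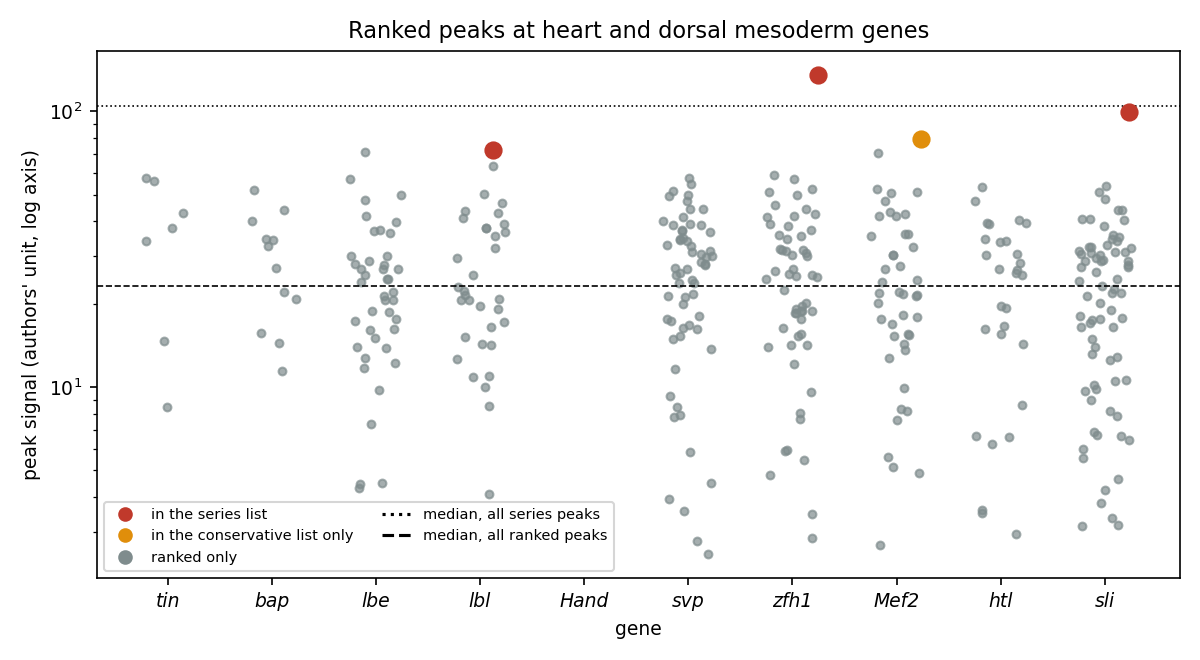
Signal of every ranked peak at each gene in the series list (points, authors' unit, log axis), with the medians of all series peaks and of all ranked peaks as lines. The zfh1 peak at 135.9 is the only point above the median of all series peaks, 104.6, the Mef2 point in the conservative list alone stands at 79.3, and Hand has no point.

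The homeobox genes tin, bap, lbl and lbe lie in a cluster of NK homeobox genes on chromosome 3R, from 21378977 to 21446537. These 67561 bp held 82 ranked peaks with a median signal of 24.4, close to that of all ranked peaks, and 1 of them was thresholded. Replicate 1 had 71 and replicate 2 had 80 ranked peaks there. The distance from tin to bap measured 6909 bp, that from bap to lbl 19529 bp and that from lbl to lbe 7443 bp. Between bap and lbl lie 4 other protein-coding genes: Ugt49B2, CG7907, CheB93a and CheB93b.

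The gene tin (tinman, FBgn0004110; chr3R:21378977-21381970, plus strand) encodes the NK homeodomain protein required for the heart and all dorsal mesoderm. It had 7 ranked peaks with signals from 8.51 to 57.2, and 4 of them lay in its body. The strongest (chr3R:21383580-21383929; IDR 0.0726) lay in intergenic sequence 4778 bp downstream of the TSS, and its sequence is the tin window printed above. Its signal of 57.2 came with 26.3 in replicate 1 and 28.6 in replicate 2. The next, at 56.0, lay in a coding exon 2706 bp downstream of the TSS, with 17.9 in replicate 1 and 26.6 in replicate 2. Both replicates placed their own strongest tin peak at the same site, 57 bp apart, although neither called it. Upstream of tin, the series ranked list had no peak over 10573 bp and that of replicate 2 none over 10825 bp, while replicate 1 had 7 ranked peaks in the series stretch, with signals from 11.1 to 25.2.

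The gene bap (bagpipe, FBgn0004862; chr3R:21388880-21390449, plus strand) encodes a related homeodomain protein that directs the visceral mesoderm. It had 12 ranked peaks, 10 of them outside its short body, with signals from 11.4 to 51.8. The strongest (chr3R:21393037-21393386; IDR 0.23) was intergenic, 4332 bp downstream of the TSS, and measured 51.8 in the series list, with 23.0 in replicate 1 and 26.5 in replicate 2. Neither replicate had its own strongest bap peak there: these measured 29.5 in replicate 1 and 32.9 in replicate 2 and lay 572 bp apart. No bap candidate therefore stood out in the same place in both replicates.

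The ladybird genes lbl and lbe encode homeodomain proteins that give identity to subsets of heart and body wall muscle cells. The thresholded peak of lbl (FBgn0008651; chr3R:21409979-21434133, minus strand) lay at chr3R:21438620-21438969, between the genes and 4662 bp upstream of the lbl TSS. It had a signal of 72.3, rank 1016 of the 1140 series peaks, and a score of 914, with an IDR of 0.00629 in the series ranking and 0.00861 in the conservative ranking. Replicate 1 gave it 43.2 (IDR 0.0832) and replicate 2 gave it 34.1 (IDR 0.356), so it was in the own list of neither. It was nevertheless the strongest lbl peak in each replicate, with summits 5 bp apart. Of the 34 ranked peaks of lbl, 28 lay in its body, and the strongest of those (chr3R:21417903-21418252, intron, IDR 0.0218) measured 63.4, with 32.8 in replicate 1 and 29.2 in replicate 2. That summit had CheB93b, not lbl, as the gene with the nearest TSS.

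The gene lbe (FBgn0011278; chr3R:21441577-21446537, minus strand) had 42 ranked peaks, 10 in its body and 32 outside it. Its strongest, at chr3R:21441745-21442094, reached 71.5, close to the 72.3 of the lbl peak, but with an IDR of 0.0254 it missed the threshold. It lay in the 3′ UTR, 4617 bp downstream of the TSS, and measured 30.6 in replicate 1 and 31.5 in replicate 2. In replicate 2 a peak 7707 bp away was stronger, at 35.2. The call at lbl and the missed call at lbe were therefore of nearly equal signal in the series list, and differed more in replicate 1 than in replicate 2.

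**Figure D2:**
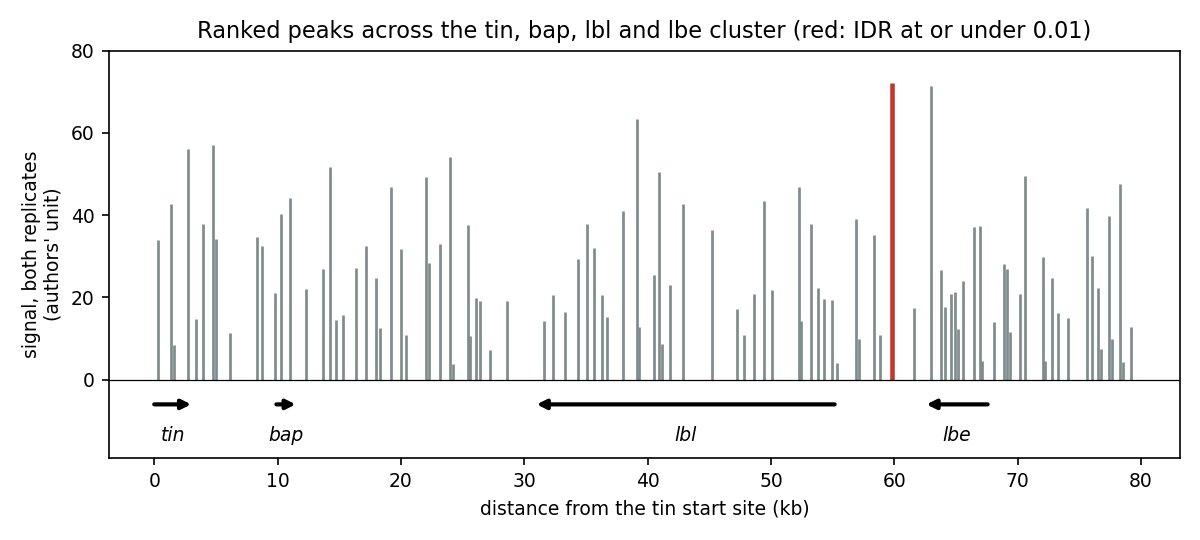
Signal of the series ranked peaks (lines, authors' unit) by distance from the tin start site across the cluster, with gene bodies as arrows in the direction of transcription. The red line is the thresholded peak between lbl and lbe at 72.3, and the grey line of nearly the same height to its right is the lbe peak at 71.5.

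The gene Hand (FBgn0032209; chr2L:10292679-10295385, minus strand), which encodes a bHLH factor expressed throughout the heart, had no ranked peak in any list used here. It was the only gene of the set without one: 84% of all genes had a ranked peak, as 9 of these 10 did. It lay in a stretch of 167275 bp without a ranked peak that held 54 genes, from a peak near Fum4 with a signal of 21.7 to a peak near Cand1 with 59.6. The median space between neighbouring summits was 615 bp, and only 4 of 140200 spaces were as long, that one included. In replicate 1 the empty stretch measured 77617 bp and in replicate 2 it measured 131444 bp. Because candidates were missing for 98946 bp on the left and 65623 bp on the right in the series list, the value 0 at Hand describes the region and not the gene alone. Inside the series stretch, away from its ends by more than 350 bp, replicate 1 had 8 ranked peaks and replicate 2 had 4.

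The gene svp (FBgn0003651; chr3R:12258737-12302785, plus strand) encodes the COUP-type nuclear receptor of the cardioblasts in which the Dorsocross genes are expressed. It had 61 ranked peaks, 59 of them in its body of 44049 bp, with a median signal of 27.0, and no thresholded peak. The strongest (chr3R:12285845-12286194, intron, IDR 0.423) measured 57.3, with values of 19.5 in replicate 1 and 23.4 in replicate 2. The one with the lowest IDR in the series ranking (chr3R:12291615-12291964, intron, IDR 0.0553) measured 54.7, with 20.7 in replicate 1 and 32.8 in replicate 2. The strongest peaks of the replicates lay 2358 bp apart. Of the 61, 37 were above the median of all ranked peaks, yet none was far above the others.

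The gene zfh1 (FBgn0004606; chr3R:30765926-30789202, plus strand) encodes a zinc-finger homeodomain protein of the mesoderm that is known from pericardial cells. It carried the strongest peak of the set, at chr3R:30781581-30781930. Its signal of 135.9 ranked 366 among the 1140 series peaks, with the highest score, 1000, an IDR of 0.00107 and a conservative IDR of 0.00121. Replicate 1 gave it 88.3, rank 312 in its own list, and replicate 2 gave it 55.2. The latter had an IDR of 0.0144, above the limit of 0.01, so it was not in the own list of replicate 2. The summit lay in an intron, 1502 bp upstream of the nearer zfh1 TSS and 15830 bp downstream of the other, inside 2 of 3 transcripts. The other 56 ranked peaks of zfh1 were weaker, and its median was 25.2.

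The gene Mef2 (FBgn0011656; chr2R:9913496-9958858, minus strand) encodes the MADS-box factor needed for the differentiation of all muscle types. Its 44 ranked peaks, all in its body, included 4 with an IDR of 0.05 or less, the most of the set. The strongest (chr2R:9942803-9943152) measured 79.3 and lay in a 5′ UTR, 1786 bp downstream of the nearest TSS. It was in the conservative list, rank 866 with a conservative IDR of 0.0067, but not in the series list, where its IDR was 0.0224. Replicate 1 gave it 49.3 (IDR 0.0161) and replicate 2 gave it 34.5 (IDR 0.839), and it was the strongest Mef2 peak in both, with summits 23 bp apart. The next site (chr2R:9917912-9918261, coding exon, IDR 0.0123) measured 70.6 and had Etf-QO, not Mef2, as the gene with the nearest TSS. Another (chr2R:9935870-9936219, intron, IDR 0.0408) measured 50.6. The remaining one was a weak peak of 5.61 that overlapped the peak at 70.6 and was likewise nearest to the TSS of Etf-QO. The series ranked list had no peak over the first 10484 bp of the gene at its 5′ end and 16339 bp beyond. In that stretch replicate 1 had a called peak of 244.1, at 1088 bp beyond the gene, with no counterpart in the series list. The ranked list of replicate 2 also had no peak there, over 14678 bp beyond the gene. The called peak of replicate 1 was not counted for Mef2, because its summit lay outside the gene body and nearest to the TSS of another gene.

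The gene htl (heartless, FBgn0010389; chr3R:18045216-18052984, minus strand) encodes the FGF receptor with which mesoderm cells spread toward the dorsal ectoderm. None of its 29 ranked peaks was thresholded. The strongest (chr3R:18049522-18049871, intron, IDR 0.485) lay 331 bp upstream of a TSS and measured 53.2, with 27.1 in replicate 1 and 14.1 in replicate 2. The next (chr3R:18056679-18057028, intergenic) lay 3870 bp upstream and measured 47.4, with 36.4 in replicate 1 and 11.5 in replicate 2. The replicates differed most widely here in place, since their own strongest htl peaks lay 8985 bp apart.

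The gene sli (slit, FBgn0264089; chr2R:15869495-15922118, minus strand) encodes the secreted ligand of the Robo receptors, used at the midline and in forming the heart lumen. It is the longest gene of the set, at 52624 bp, and had the most ranked peaks, 74. Its thresholded peak (chr2R:15886955-15887304) measured 99.8, rank 606 of 1140, with a score of 1000, an IDR of 0.00274 and a conservative IDR of 0.00483. The summit lay in an intron shared by 6 of 6 transcripts, 3787 bp downstream of the nearer TSS. Replicate 1 gave it 67.5 (IDR 0.00305) and called it, and replicate 2 gave it 35.2 (IDR 0.201) and did not. Leaving sli out, the median signal of the remaining 286 ranked peaks was 24.9.

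**Figure D3:**
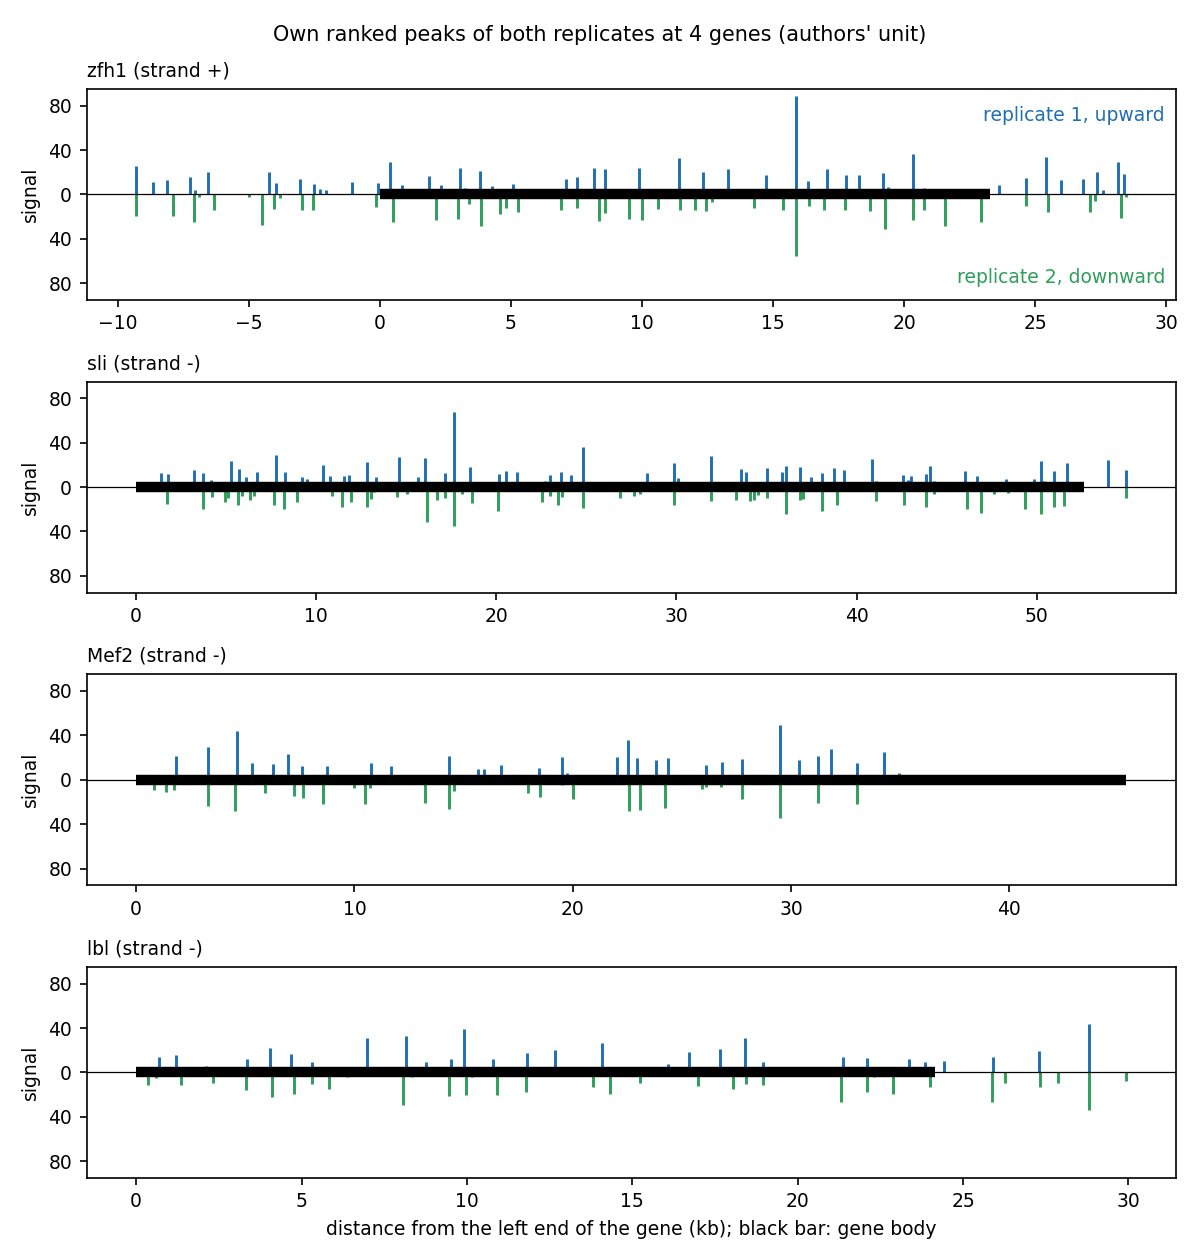
Signal of the own ranked peaks of replicate 1 (upward) and replicate 2 (downward) along zfh1, sli, Mef2 and lbl, by distance in kb from the left end of each gene, with the gene body as a black bar. In each panel the tallest line of both replicates falls at the same place: 88.3 and 55.2 at zfh1, 67.5 and 35.2 at sli, 49.3 and 34.5 at Mef2, and 43.2 and 34.1 at lbl.

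Replicate 1 gave the higher signal at all 3 thresholded peaks, with ratios of replicate 1 to replicate 2 of 1.60 at zfh1, 1.92 at sli and 1.27 at lbl. The median ratio of 1.60 stood beside 1.29 over all series peaks, of which 77.0% (856 of 1112 with a match in both replicates) were higher in replicate 1. The direction was thus that of most series peaks, and with 3 peaks the difference in median was not tested. Over the ranked peaks of the set with a match in both replicates, 271 of 360 (75.3%, against 68.2% of all ranked peaks), the median ratio was 1.01, and the Spearman correlation of the 2 signals was 0.286, against 0.225 over all ranked peaks. These correlations are across peaks of the same 2 libraries, which are not independent. Overlapping or neighbouring series peaks can also be matched to the same replicate peak, so some pairs of values are repeated.

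The strongest own peak of each replicate fell in the same place, with summits within 310 bp (the width of the replicates' peaks, a limit chosen after the values were seen), at 5 of the 9 genes with ranked peaks: tin, lbl, zfh1, Mef2 and sli. Over 11126 genes with a ranked peak in both replicates, 33.7% did so. All 3 genes with a series peak, and Mef2 with its conservative peak, were among the 5. That is no separate support for the calls. The conservative list holds all of these peaks, was taken as the comparison of the replicates, and favours peaks that repeat between them. At bap, lbe, svp and htl the strongest peaks lay 572, 7707, 2358 and 8985 bp apart. With 9 genes, 5 against 33.7% is a description and not a tested difference.

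**Figure D4:**
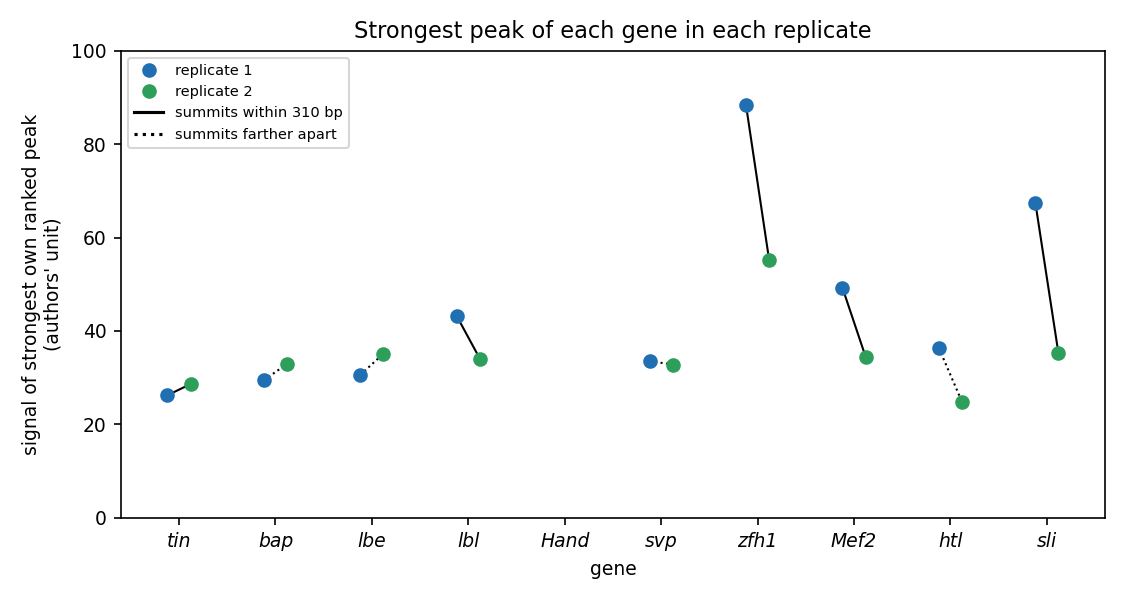
Signal of the strongest own ranked peak of each gene in replicate 1 and replicate 2 (points, authors' unit), joined by a solid line where the summits lay within 310 bp and a dotted line where they were farther apart. The points at zfh1, 88.3 and 55.2, and at sli, 67.5 and 35.2, stand highest, and Hand has none.

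None of the 3 thresholded peaks lay within 500 bp of a TSS, while 503 of the 1140 series peaks (44.1%) did. Candidates near the start sites existed: 9 of the 10 genes had a ranked summit within 500 bp of a TSS of their own, as 64% of all genes had one, and all were below the threshold. The strongest was that of htl, 331 bp upstream of a TSS with 53.2. Next came zfh1, 487 bp downstream with 49.8 (29.2 in replicate 1 and 24.9 in replicate 2), and svp, 463 bp upstream with 49.7 (17.1 and 29.1). The ranked peaks at the genes lay in introns in 198 of 360 cases, which is 55%, in intergenic sequence in 24.2% and in coding exons in 15%. All ranked peaks lay there in 39.7%, 32.1% and 23.1%, and all series peaks in 45.8%, 42.0% and 5.18%. Beside all ranked peaks, the set's candidates lay more often in introns and less often in coding exons and between genes, in shares that were not tested and that the rule giving peaks to gene bodies can shift.

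At a looser IDR of 0.05, 10 of the 360 ranked peaks were included, at 5 of the 10 genes: zfh1, sli, lbl, lbe and Mef2. Overlapping peaks were counted apart. A weak lbl peak of 12.7 overlaps that of 63.4, and a weak Mef2 peak of 5.61 overlaps that of 70.6. Over all genes 17.6% had such a peak. No peak of tin, bap, svp or htl passed at this limit, and the nearest were the svp peak at 0.0553, the tin peak at 0.0726 and a bap peak that overlaps it (chr3R:21383779-21384128, signal 34.3) at 0.0725.

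Motifs were searched within 100 bp of each summit on both strands. The T-box site GGTGTGA was in none of the 3 thresholded peaks, in 1.58% of all series peaks, in 5 of the 360 ranked peaks at the genes (1.39%) and in 1.49% of all ranked peaks. The 5 lay at lbl, with signals of 37.9 and 20.7, at sli, with 38.5 and 19.1, and at Mef2, with 24.0, and none came near the threshold. Those of lbl and sli counted by lying in the gene body. The nearest TSS was that of CheB93b for both lbl peaks, and of Rif1 and CG33463 for those of sli. The shorter core GTGTGA, which the longer site contains, was in 7.5% of the ranked peaks of the set and in 8.18% of all ranked peaks. T-box sites were therefore no commoner at candidates of these genes than at candidates elsewhere, in counts that were not tested.

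Among the sites of other heart and mesoderm factors, the Tinman site TNAAGTG was in 72 of the 360 ranked peaks (20%), against 13.0% of all ranked peaks and 15.9% of all series peaks. The site GCCGNCG of Mad, the effector of Dpp, was in 56 (15.6%), against 10.2% of all ranked and 5.88% of all series peaks. None of the 3 thresholded peaks of the set held either. Those of GATA factors, AGATAA (8.61% against 7.90%), of forkhead factors, TAAACA (13.6% against 13.1%), of Twist, CATATG (3.61% against 4.85%), and of Mef2 (3.06% against 3.5%) were nearer to the rate over all ranked peaks. The median GC content of the 201 bp windows was 48.0% for the set, 46.8% for all ranked peaks and 37.3% for all series peaks, and its part in the motif rates was not tested. The tin candidate printed above held a Tinman site (59 to 65 bases right of the summit). It also held a Mad site (20 to 14 bases left), a forkhead site (49 to 44 bases left) and a T-box core (88 to 93 bases right). These sites were not all particular to tin. The window of the strongest Mef2 peak also held a Tinman site, and those of lbe, svp and htl each held a forkhead site.

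The 6-mer ACAGTG was searched because an earlier search of these same peaks had led with it, so its rate over series peaks is no new result. It was in 22.6% of all series peaks, in 8.19% of all ranked peaks and in 24 of the 360 ranked peaks of the set (6.67%). Of the 3 thresholded peaks only that of zfh1 held it, in 2 copies, 70 to 65 bases left and 93 to 98 bases right of the summit and on opposite strands, as the printed sequence shows. At least 2 copies were found in 53 of the 1140 series peaks (4.65%) and in 694 of the ranked peaks (0.495%). The zfh1 and sli windows were low in GC, at 36.3% and 33.8%, near the median of the series peaks, while that of lbl, at 54.7%, was not.

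Other genes of the same tissues were taken from a list of 27, drawn up with earlier results of these data known. A series peak was found at 7 of the 27 (25.9%, beside the 7.82% of all genes), and 7 of their 1221 ranked peaks (0.573%) reached the list, against 0.813% of all ranked peaks. The conservative list held a peak at 5 of the 27, beside 7.24% of all genes. Of the signals and receptors, 3 of 8 had a peak in each of these lists. The FGF ligand gene ths, whose protein binds the receptor made from htl, had the highest, with 146.8 in an intron, 69.6 in replicate 1 and 70.8 in replicate 2. It alone of the 27 was called in the own lists of both, in which 2.7% of all genes had overlapping peaks. The gene dpp, which encodes the BMP-type signal, had 82.9 in an intron (44.3 and 45.3), and its receptor gene tkv had 74.6 in an intron, 209 bp downstream of a TSS (33.6 and 45.8).

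Of the 12 genes for transcription factors, 4 had a series peak, beside 7.82% of all genes. Of these, 2, bin and mid, also had a conservative one, while ush and H15 did not. That of ush, a partner of GATA factors, measured 98.0 in an intron, with 30.1 in replicate 1 and 56.2 in replicate 2, which called it. That of bin, the forkhead factor of visceral mesoderm, measured 94.2 (41.1 and 55.5) and lay 1234 bp upstream of its TSS. The T-box genes mid and H15, also known from the heart, had intergenic peaks 15241 and 15008 bp downstream of their start sites, of 86.6 (42.5 and 42.8) and 63.3 (35.9 and 30.5). None of the 7 genes of heart lumen, guidance and matrix had a series peak, although replicate 1, with a peak at 5.49% of all genes, called unc-5, at 56.8 and 47.7, and Sdc, at 55.0. The ligand sli was thus the only gene of guidance with a series peak among the 10 genes and these 7.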

How the data were processed

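Peaks were called by the authors and deposited on dm6, per the notes deposited with the files. The sources used here do not name the aligner or the peak caller. Reads and control libraries were not analysed here, so depth is unknown. The signal of a peak, its score (scaled IDR) and, in the ranked lists, the −log10 of its IDR are the authors' values, used as deposited. The series thresholded list lies wholly within one ranked list (1230 of 1230 peaks) and the conservative list within the other (1143 of 1143). Both were derived from the reads of both replicates, per the deposited notes, which do not say what sets the IDR compared, and the conservative list was taken as the comparison of the replicates. Peaks are 350 bp wide in most series lists and 310 bp in the replicates' lists.

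Protein-coding genes were taken from Ensembl release 115 on X, 2L, 2R, 3L, 3R and 4, and all 10 genes and all 27 other genes were matched by symbol. Sequences were read from RefSeq Release 6. A replicate's value for a series peak is the overlapping peak (1 bp or more) of its own ranked list with the nearest summit. The members and lists were chosen with earlier results of these data known. Named are all 10 genes with their thresholded or strongest ranked peaks, every other gene of the list with a series peak, and the neighbouring genes. The assignment of positions to genes and the distance to the nearest TSS were tested on positions planted at random on the gene models. The counts, the matching of replicates and the motif search were not tested in that way. Computations used scipy 1.17.1, pandas 2.3.3 and numpy 2.4.6 in Python 3.11.15, with figures from matplotlib 3.10.9. No p-value was computed, since there was 1 group of 2 replicates.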

Additional observations from a re-analysis of the deposited data

How the results depend on the processing

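Of 51 alternative settings, 38 left the value near the main one (within 1.5-fold, or again 0 where it was 0) and 13 moved it. Nearly all the values were counts or shares, which cannot change sign, so the lack of a reversal is not a result. The 3 genes with a series peak, and their 3 peaks, became 0 to 2 with the list of a single replicate (replicate 2 alone gave 0) and 1 with series peaks at or above the median signal (zfh1). They became 5 genes with 10 peaks, overlapping ones counted apart, at an IDR of 0.05, an alternative chosen after seeing the data. The conservative list gave 4. With summits within 5 kb of a body there were 4 genes, because the lbl peak then also counted for lbe. With gene bodies alone there were 2 genes, because the lbl peak is intergenic and was given to lbl only by its nearest TSS. The share of ranked peaks reaching the threshold, 0.833%, was 0 to 0.612% with a single replicate, 2.78% at an IDR of 0.05 (2.17% of all ranked peaks) and 0% at 0.001. The 7 other genes became 2 to 3 with a single replicate, 1 at or above the median signal and 4 with gene bodies alone. The counts of peaks within 500 bp of a TSS, with a T-box site and in both replicates' lists were 0 under every setting run. Many of these settings could give no other value. The list of replicate 2 held no peak at the genes, and a narrower window or fewer peaks cannot raise a count of 0. Those zeros are therefore not read as a sign of stability. The cause of the shifts in the other counts was not tested. The ratio of the replicates was not run on the values of the sets that the IDR compared, since those were not matched to a sample. No paired analysis was possible because there is 1 group. Depth is unknown, so an absent peak cannot be told apart from too few reads.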

Other observations

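At the 7 genes not touched by a long stretch without candidates, the longest distance between neighbouring summits of the series ranked list measured from 1.32 to 3.05 kb, against a median of 615 bp over the whole list. The stretches at the other genes differed between the lists. At tin the longest measured 10864 bp in the series ranked list, 12167 bp in that of replicate 2 and 1603 bp in that of replicate 1. At Mef2 it measured 26823 bp in the series list, 27038 bp in replicate 2 and 11493 bp in replicate 1. At Hand, where it measured 167275 bp in the series list, it was 77617 bp in replicate 1, whose nearest candidate, with a signal of 24.4, lay 9289 bp from the gene, and 131444 bp in replicate 2.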
